A study of Mus musculus with 10 samples.

Results

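The 4 genes described here encode parts of the sodium-potassium pump and of its small regulators: the beta subunits Atp1b1 and Atp1b3, and the FXYD proteins Fxyd2 and Fxyd5. They were taken by symbol from the count table, in which all 4 were among 43629 listed genes. The question was how abundant they were in the kidney and whether rilmenidine, a drug given against high blood pressure, was accompanied by other levels.

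The kidneys came from male UM-HET3 mice, a genetically heterogeneous stock bred from several inbred strains, killed at 4 months of age. Treated mice (n = 4) ate the control diet with 10 ppm rilmenidine added for 1 month from 3 months of age, and littermates on the control diet alone (n = 6) served as controls. The design text calls the kidneys of a group biological replicates, and messenger RNA was counted near its 3′ end.

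The sodium-potassium pump moves sodium out of the cell and potassium in at the cost of ATP, and in the tubule it sits on the basolateral side and drives the reabsorption of sodium from the filtrate. The alpha subunit carries out transport and hydrolysis of ATP, and the glycosylated beta subunit is needed for folding and delivery of the alpha subunit to the plasma membrane. FXYD proteins are small membrane proteins that bind the pump and tune its affinity for ions and its turnover. In a whole kidney, fewer cells of one type and less RNA per cell cannot be told apart.

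The FXYD family is named after an amino acid motif that its members share, and the codons for it are shown because the motif is the feature by which Fxyd2 and Fxyd5 belong to the same family as Fxyd1 and Fxyd4, the other FXYD genes with enough reads to be tested. Capitals mark the codons for phenylalanine, any amino acid, tyrosine and aspartate, and the flanking 9 bases on each side are in lower case. The letters are from the GENCODE M21 transcripts (GRCm38), read 5′ to 3′ on the coding strand, and each window of 30 bases crosses an exon junction.
Fxyd2: gagaatcccTTCGAGTACGACtatgaaacc
Fxyd5: aacaaccccTTCTACTACGATgatactacc
Fxyd1: ccggatccaTTCACCTACGATtaccacacc
Fxyd4: gacagtcccTTCTACTATGACtgggagagc
The Fxyd2 window lies at chr9:45408126-45408310 on the plus strand and that of Fxyd5 at chr7:31035273-31035404 on the minus strand. All 7 FXYD genes of the mouse annotation held the motif once in frame, each time directly after a proline codon. Over 21474 coding genes of the table, searched on the coding strand only, 637 (2.97%) held the 4 codons in frame and 33 (0.154%) held them after a proline codon. In Fxyd2 the motif began at codon 17 of a coding sequence of 192 bases. In Fxyd5, whose product (also called dysadherin) has a long extracellular part, it began at codon 135 of 534 coding bases.

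The 10 libraries held between 863605 and 3232063 counts, with a median of 1489031 in controls and 2483263 with rilmenidine. Levels are given as CPM, the counts of a gene per 1000000 counts of its library after scaling by edgeR's RLE method. Of all genes, 10055 reached 6 reads in no fewer than 66.6% of the kidneys and were tested, including 3 of the 4 genes (Atp1b1, Atp1b3 and Fxyd2). The extraction text of the labels names liver, whereas the tissue label is kidney. The 8 proximal tubule markers summed to between 9330 and 11000 CPM, and the 6 liver markers to between 65.9 and 128 CPM, with albumin at a mean of 4.45 CPM in controls and 5.86 CPM with rilmenidine. Libraries also differed in the nuclear RNA Malat1, which was between 1182 and 2100 CPM in controls 1, 3, 4 and 5 and between 283.8 and 397.9 CPM in the other 6 kidneys. Reads on olfactory and vomeronasal receptor genes ranged from 4.27 to 387 CPM and were under 10 CPM in 3 kidneys (control 6, rilmenidine 3 and rilmenidine 4). Of the treated kidneys, only rilmenidine 1 and rilmenidine 2 reached 10 CPM.

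At baseline, Fxyd2 was the most abundant of the pump and FXYD genes reported here. Per kilobase of transcript, its level in the 6 control kidneys was 3876 ± 516 CPM per kb (mean ± SD), which ranked it 15th among 10020 tested genes with a known length (the top 0.15%). Atp1b1, the main beta subunit of the renal pump, stood at 286 ± 30.5 CPM per kb and ranked 261st.

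Atp1b3, a beta subunit found at low level in many tissues, stood at 61.6 ± 5.99 CPM per kb and ranked 1145th. Fxyd5 came much lower, at 2.05 ± 1.39 CPM per kb. The order of the 4 genes was the same on the CPM scale without division by length. Because reads came from 3′ ends, counts need not grow with transcript length, and the transcripts used for scaling ranged from 632 bases (Fxyd2) to 2580 bases (Atp1b1) among the 4 genes. The ranks were computed per kb only, a scale that favours short transcripts if counts do not grow with length.

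Between neighbours in this order, the control mean of Fxyd2 was 13.6-fold that of Atp1b1 and Atp1b1 was 4.64-fold Atp1b3, and in each case the values of the 6 kidneys did not overlap. The Atp1b3 level was 3.25-fold that of Fxyd4, a regulator of the collecting duct, again without overlap. Fxyd5 overlapped with its upper neighbour Atp1b2 (1.38-fold higher) and with its lower neighbour Atp1a4 (7.55-fold lower). Without division by length, the control mean CPM of Fxyd2 was 3.33-fold that of Atp1b1, Atp1b1 was 6.0-fold Atp1b3, and Atp1b3 was 5.41-fold Fxyd4, so the size of these steps depends on the scale. The plot of levels per kilobase shows these steps for every kidney.

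**Figure D1:**
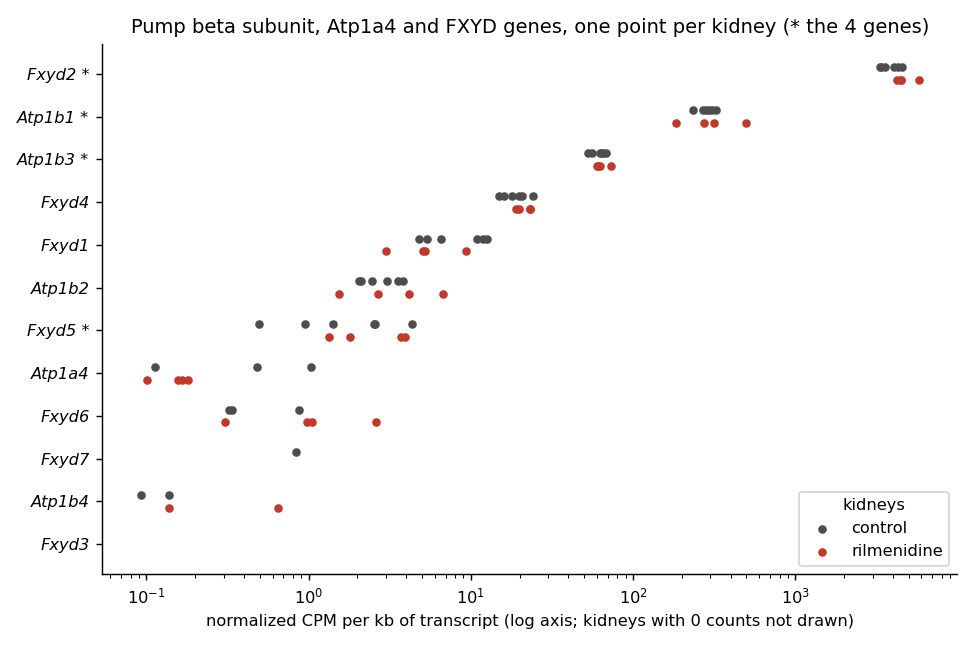
Level of the genes named as beta subunits, Atp1a4 and the FXYD genes in CPM per kb of transcript (log axis), 1 point per kidney, gray for 6 controls and red for 4 rilmenidine kidneys, with asterisks on the 4 genes and kidneys at 0 counts not drawn. Fxyd2 lies at 3353 CPM per kb or higher in all kidneys, and Fxyd5 lies in the range shared by genes with few reads.

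Neither beta subunit nor Fxyd2 passed the test for a difference with rilmenidine. Of the 3 tested genes, 0 had an adjusted p under 0.05 in edgeR's quasi-likelihood test, and the same was true of all genes (0 of 10055, 0%). At an unadjusted p under 0.05 there were 0 of 3, against 1061 of 10055 genes (10.6%). DESeq2 called 60 genes (0.597%) and edgeR's likelihood ratio test 44 (0.438%), none of them among the 3. Without the filter, 241 of 27565 genes with at least 1 count were called (0.874%), and none of the 4 was among them. All 3 had an estimate above 0, as did 50.3% of all genes, and their median log2 fold change was 0.15, against 0.00206 over all genes. In none of the 3 were the groups separate, which was the case for 1.67% of genes.

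Fxyd2 (ENSMUSG00000059412, chr9:45399669-45410278, plus strand), the gamma subunit that accompanies the pump along the renal tubule, ranged in controls from 2119 to 2884 CPM with a median of 2417. With rilmenidine it was at 3638, 2820, 2839 and 2669 CPM. Rilmenidine 1 was the highest of all kidneys, but controls 2 and 6 lay inside the range of the treated group, so that the groups overlapped.

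The group means of Fxyd2 were 2450 ± 326 CPM in controls (SD, n = 6) and 2991 ± 438 CPM with rilmenidine (SD, n = 4). The log2 fold change was 0.29 with a standard error of 0.15 (approximate 95% interval -0.0019 to 0.58). In edgeR's quasi-likelihood test the unadjusted p was 0.0687 and the adjusted p was 0.512. The 95% intervals of log2 fold changes given here are normal approximations, somewhat narrower than this test implies. An exact two-sided permutation test of log2 CPM over all 210 splits of the kidneys gave p = 0.0619. Counting error was small beside the differences between animals: rilmenidine 1 had 6274 counts, with an exact 95% Poisson interval of 3550 to 3730 CPM.

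The Fxyd2 levels lay beside those of Malat1. In the 4 controls with Malat1 at 1182 CPM or more, Fxyd2 was at 2583, 2251, 2133 and 2119 CPM, below every rilmenidine kidney. In the other controls, whose Malat1 levels were 397.9 and 283.8 CPM, it was at 2727 and 2884 CPM. With log2 Malat1 as a covariate the log2 fold change of Fxyd2 was 0.09, and among the 7 kidneys with at least 10 CPM on receptor genes it was 0.45 (adjusted p = 0.427 in edgeR). The part of library composition in the Fxyd2 values was not tested further.

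**Figure D2:**
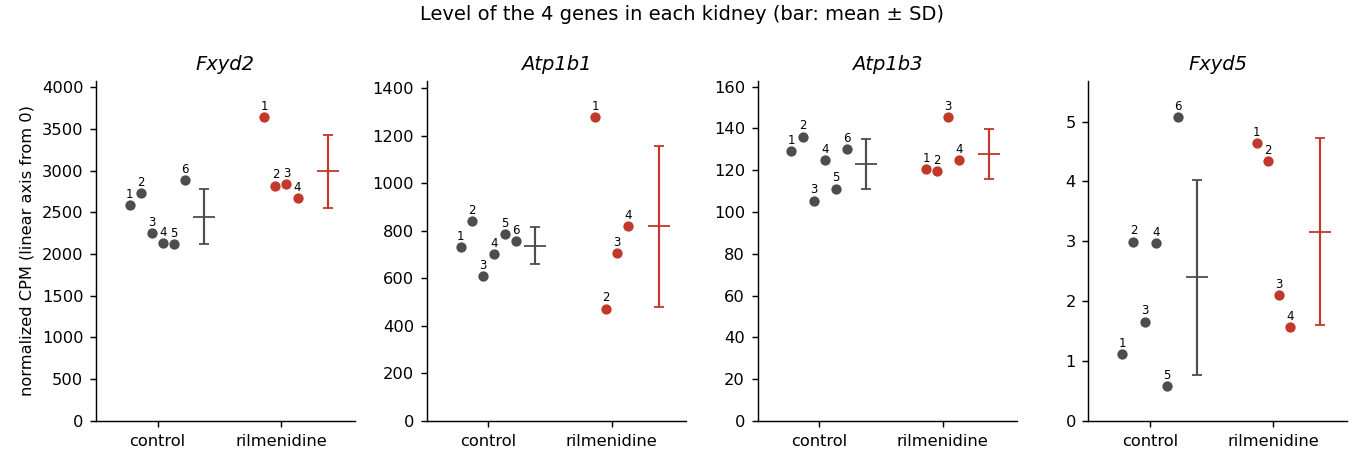
Normalized CPM (linear axes from 0) of Fxyd2, Atp1b1, Atp1b3 and Fxyd5 in each kidney, numbered by replicate, with bars for the mean ± SD of 6 controls and 4 rilmenidine kidneys. The groups overlap for every gene, and Atp1b1 shows its widest values, 472.4 and 1276 CPM, within the rilmenidine group.

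Atp1b1 (ENSMUSG00000026576, chr1:164437109-164458355, minus strand) had similar group averages but a much wider spread with rilmenidine. Controls ranged from 608.3 to 838.9 CPM with a median of 743.1. The 4 treated kidneys were at 1276, 472.4, 705.2 and 817.6 CPM. Rilmenidine 1 stood above and rilmenidine 2 below every control, while rilmenidine 3 and 4 lay within the control range.

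The Atp1b1 means were 737 ± 78.8 CPM (SD, n = 6) and 818 ± 338 CPM (SD, n = 4), a coefficient of variation of 10.7% against 41.3%, and this difference in spread was not tested. The log2 fold change was 0.15 with a standard error of 0.20 (95% interval -0.25 to 0.55), and the adjusted p was 0.85 in edgeR's quasi-likelihood test. The exact Poisson intervals of the outlying kidneys, 1220 to 1330 CPM for rilmenidine 1 (2201 counts) and 442 to 505 CPM for rilmenidine 2 (870 counts), did not reach the control values. Without rilmenidine 1 the log2 fold change was -0.15, and without rilmenidine 2 it was 0.34.

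The 3′ end of Atp1b1, where these libraries take their reads, shares 575 exonic bases with Nme7 on the opposite strand (chr1:164437109-164437725). The strand setting of the counting is not given in the sources used here, so reads from this stretch could not be attributed to either gene with certainty. Nme7, which encodes a protein of the nucleoside diphosphate kinase family, had 28 counts (15.2 CPM) in rilmenidine 2, where Atp1b1 was lowest, and at most 6.36 CPM in the other kidneys. Rilmenidine 2 also had the most reads on receptor genes (387 CPM). The part of these features in the Atp1b1 values was not tested.

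**Figure D3:**
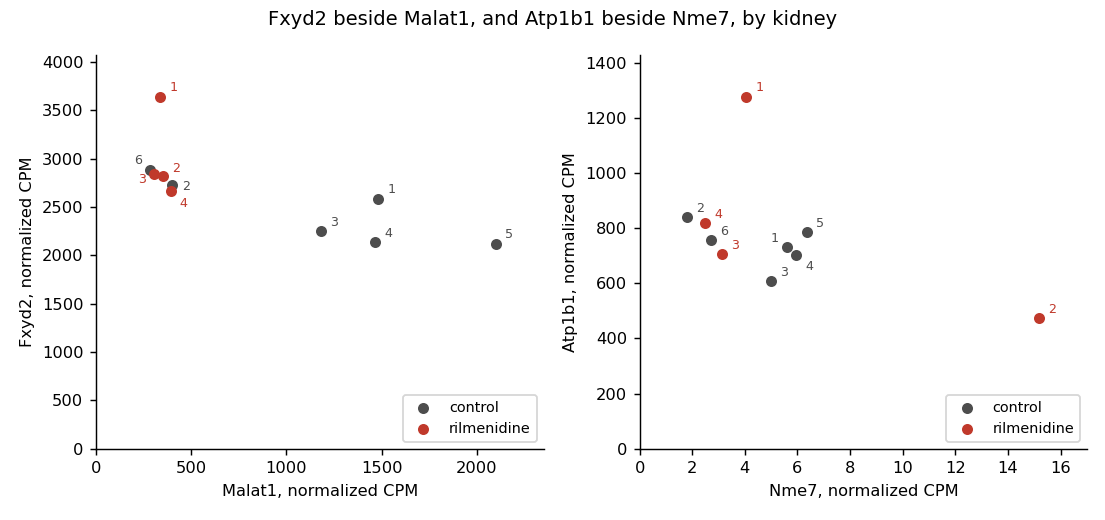
Left, normalized CPM of Fxyd2 against Malat1, and right, normalized CPM of Atp1b1 against Nme7, 1 point per kidney with its replicate number (gray control, red rilmenidine, linear axes from 0). The 4 controls with Malat1 of at least 1182 CPM have the lowest Fxyd2, and rilmenidine 2 combines 15.2 CPM of Nme7 with 472.4 CPM of Atp1b1.

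Atp1b3 (ENSMUSG00000032412, chr9:96332655-96364442, minus strand) was the steadiest of the 4. Controls ranged from 105.4 to 136 CPM with a median of 126.9, and the treated kidneys were at 120.6, 119.5, 145.2 and 124.9 CPM. Only rilmenidine 3 exceeded the highest control, and the other 3 treated kidneys lay among the controls.

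Its means were 122.8 ± 11.95 CPM (SD, n = 6) and 127.5 ± 11.99 CPM (SD, n = 4), with coefficients of variation of 9.74% and 9.40%. The log2 fold change was 0.06 with a standard error of 0.12 (95% interval -0.18 to 0.29), and the adjusted p was 0.924 in edgeR's quasi-likelihood test. The sign depended on the fit, since the estimate was -0.05 with Malat1 as a covariate, -0.02 with library size as a covariate and -0.01 without rilmenidine 3.

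Fxyd5 (ENSMUSG00000009687, chr7:31032722-31042481, minus strand) was near the limit of detection. The control kidneys had 1, 5, 2, 4, 1 and 13 counts and the treated kidneys 8, 8, 6 and 5. It reached 6 reads in 4 of 10 kidneys, too few for the filter, and the gene table therefore gives no fitted fold change for it. The treated kidneys lay inside the wider range of the controls, which had both the most counts (control 6) and the fewest (controls 1 and 5).

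On the CPM scale Fxyd5 was at 2.40 ± 1.63 in controls (SD, n = 6) and 3.16 ± 1.56 with rilmenidine (SD, n = 4). Summed over kidneys there were 26 counts in controls, or 2.76 CPM (exact 95% Poisson interval 1.81 to 4.05), and 27 with rilmenidine, or 2.80 CPM (1.85 to 4.08). The difference in mean log2 CPM was 0.35, with p = 0.424 in an exact two-sided permutation test. No difference was detected, and the counts per kidney are few. Among the 7 kidneys with at least 10 CPM on receptor genes the difference was 1.01 (exact permutation p = 0.0952). Only rilmenidine 1 and rilmenidine 2 remain in the treated group there, and the smallest possible p of the exact test is 0.0476. Fxyd5 is also known from leukocytes, and the 10 immune markers summed to between 58.9 and 274 CPM in controls and between 150 and 163 CPM with rilmenidine. Their part in the Fxyd5 counts was not tested. The gene also holds the microRNA gene Mir7050, which covers 60 exonic bases on the same strand.

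The balance between the 4 genes was compared as log2 ratios of CPM within each kidney, a quantity that does not depend on library size and that was not corrected for length, since only the same ratio was compared between groups. Each of the 6 ratios was tested by an exact two-sided permutation test over 210 splits, whose smallest possible p is 0.00476, with Benjamini-Hochberg adjustment over the 6. None passed, and the smallest adjusted p was 0.543.

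The log2 ratio of Fxyd2 to Atp1b3 ranged in controls from 4.08 to 4.46 with a median of 4.31. With rilmenidine it was 4.90, 4.55, 4.28 and 4.41, so that rilmenidine 1 and 2 lay above all controls. The means were 4.30 ± 0.13 (SD, n = 6) and 4.53 ± 0.27 (SD, n = 4), a difference of 0.23 that did not pass the test (exact permutation p = 0.0905, adjusted p = 0.543). It was 0.11 without rilmenidine 1, and 0.455 in the 7 kidneys with at least 10 CPM on receptor genes (exact permutation p = 0.0476, adjusted p = 0.286). With only rilmenidine 1 and 2 left in the treated group, 0.0476 is the smallest p that these 7 kidneys can give. A ratio alone could therefore not pass after adjustment.

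The log2 ratio of Fxyd2 to Atp1b1 was between 1.43 and 1.93 in controls, with a median of 1.76. It was 1.51, 2.58, 2.01 and 1.71 in the treated kidneys, with rilmenidine 2 and 3 above the controls. The difference of the means was 0.22 (exact permutation p = 0.343, adjusted p = 0.864). It rested on rilmenidine 2, without which it was 0.0129, and it was 0.37 without rilmenidine 1.

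For the beta subunits, the log2 ratio of Atp1b3 to Atp1b1 was between -2.81 and -2.48 in controls, with a median of -2.52. In the treated kidneys it was -3.39, -1.97, -2.27 and -2.70, and rilmenidine 1 and 2 thus lay on opposite sides of the controls. The means were -2.57 ± 0.13 (SD, n = 6) and -2.59 ± 0.62 (SD, n = 4), with exact permutation p = 0.948. Ratios of Fxyd5 to Atp1b1, Atp1b3 and Fxyd2 differed by 0.28, 0.29 and 0.06, and their adjusted p-values were 0.864, 0.864 and 0.948 in the exact permutation tests. These ratios depended on the prior count, since Fxyd5 has few reads: with a prior count of 0.5 the differences were 0.42, 0.43 and 0.20. In the 7 kidneys with at least 10 CPM on receptor genes they were 0.92, 1.02 and 0.57, with the smallest adjusted p at 0.286. A ratio alone could not pass in these 7 kidneys.

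**Figure D4:**
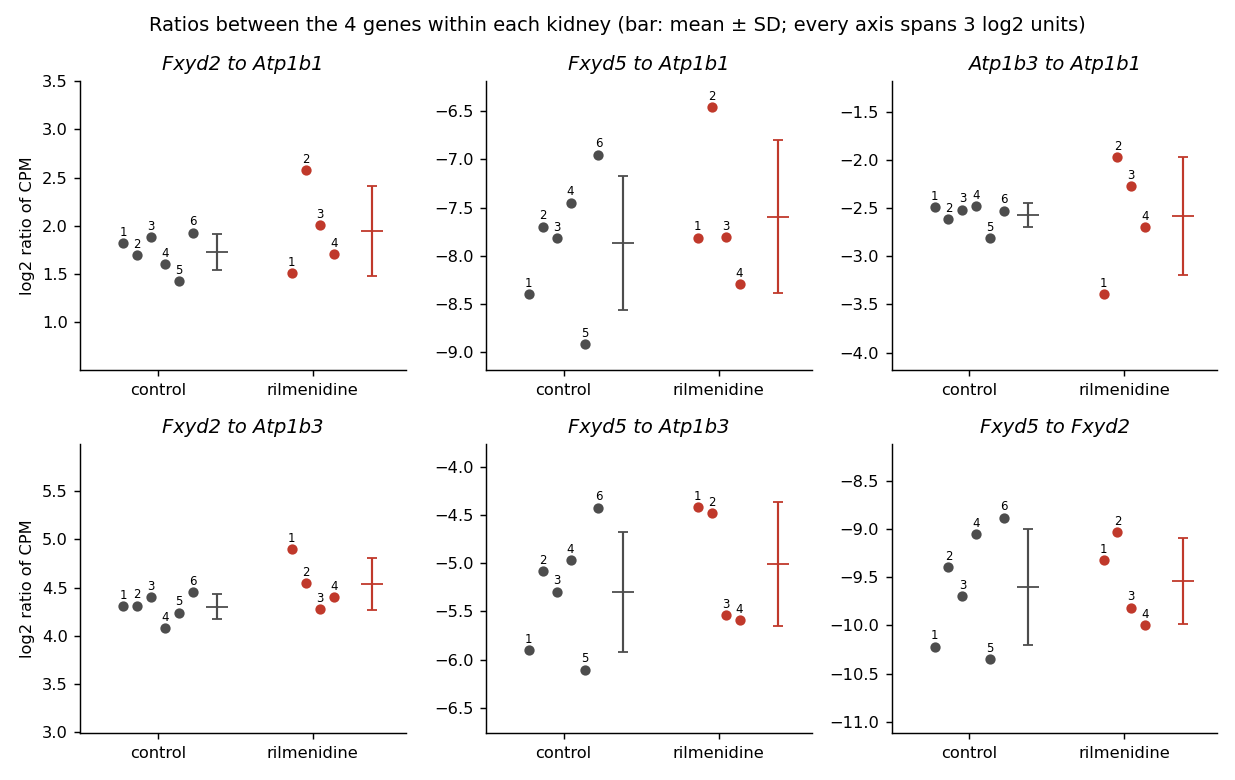
Log2 ratio of CPM for each pair of the 4 genes in each kidney (numbered by replicate, 6 controls in gray, 4 rilmenidine kidneys in red), with bars for mean ± SD, every axis spanning 3 log2 units. Rilmenidine 1 and 2 lie on opposite sides of the controls for Atp1b3 to Atp1b1, at -3.39 and -1.97.

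Other genes named as subunits of the pump and the other FXYD genes were read from the same fit. Atp1b2, a beta subunit best known from glia, was at 8.06 ± 2.13 CPM (SD, n = 6) and 10.8 ± 6.38 CPM (SD, n = 4), a log2 fold change of 0.38 with a standard error of 0.37 and an adjusted p of 0.763 in edgeR.

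Atp1a4, an alpha subunit known from the testis, had 9 counts over all controls and 5 over all treated kidneys. Atp1b4, listed here as a beta subunit by its name only, had 2 counts in controls and 6 with rilmenidine, 5 of them in rilmenidine 2. Neither reached the filter.

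Among 5 other FXYD genes, 2 were tested and 0 passed. Fxyd4, which regulates the pump in the collecting duct, was at 22.7 ± 4.05 CPM in controls (SD, n = 6) and 25.5 ± 2.63 CPM with rilmenidine (SD, n = 4), with a log2 fold change of 0.16 and an adjusted p of 0.805 in edgeR. Fxyd1 (phospholemman, the regulator of the pump in heart and skeletal muscle) had 53 counts in controls and 31 with rilmenidine, with a log2 fold change of -0.70, a standard error of 0.41 and an adjusted p of 0.571 in edgeR. Fxyd6 had 0, 1, 0, 0, 1 and 4 counts in controls and 8, 1, 5 and 6 with rilmenidine. It did not reach the filter. The exact two-sided permutation test of its log2 CPM, the test used for Fxyd5, gave p = 0.0333 without adjustment for the number of genes. For Atp1a4 and Atp1b4, which also missed the filter, the exact two-sided permutation test gave p = 0.838 and p = 0.233. The Fxyd6 value rests on 6 counts over all controls and 20 over all treated kidneys, and is not set against a share of all genes. Rilmenidine 1, 3 and 4 had more counts than any control, and rilmenidine 2 lay among the controls. In CPM, rilmenidine 1, 3 and 4 were at 4.64, 1.75 and 1.87, against 1.56 in control 6, the highest control. Fxyd7 had 1 count in all. Fxyd3 had 0 counts in every library, which allows a level of up to 0.319 CPM over the controls and 0.312 CPM over the treated kidneys (3 counts, a one-sided limit), and it shares 2059 exonic bases with Lgi4 on the opposite strand.

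How closely the genes followed each other from kidney to kidney was described by Pearson's r of log2 CPM over the 10 kidneys, which share differences in depth and composition. Between Fxyd2 and Atp1b1 r was 0.482, and between Fxyd2 and Atp1b3 it was 0.403. The beta subunit genes Atp1b1 and Atp1b3 had an r of 0.149. The highest value among the 4 genes was that of Fxyd2 with Fxyd5 (r = 0.642), which includes kidneys with 1 count of Fxyd5. Among 5821 tested genes with a mean of at least 20 CPM, those most like Fxyd2 were Prdx4 (r = 0.989), Mrpl45 (0.975) and Creg1 (0.97). Those most like Atp1b1 were Mal (0.94), Dctn2 (0.926) and Igfbp7 (0.883). For Atp1b3 they were Commd3 (0.933), Rbm34 (0.926) and Psmb2 (0.903).

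Genes that act on the pump, or that carry sodium and potassium beside it, were read from the same fit as context for the 4. Of 14 partners and regulators, such as the ankyrin Ank3 that anchors the pump, 9 were tested. With their median log2 fold change at -0.08, 0 passed the adjusted test and 1 had an unadjusted p under 0.05. Over all 10055 genes, 0 passed and 10.6% had an unadjusted p under 0.05, the share to set beside each list of this paragraph. The 1 regulator was Sgk1, a kinase induced by aldosterone (log2 fold change -0.44, standard error 0.20, adjusted p = 0.456 in edgeR). Of 10 genes for apical sodium entry 9 were tested, with a median of 0.08 and 0 passing. Here 2 genes had an unadjusted p under 0.05, the thiazide-sensitive cotransporter Slc12a3 (log2 fold change -0.55, adjusted p = 0.313) and the glucose cotransporter Slc5a1 (0.47, adjusted p = 0.466), both from edgeR. Sgk1, Slc12a3 and Slc5a1 each had an alternative in which the unadjusted p exceeded 0.05: the log2 fold change of Sgk1 was -0.258 in the 7 kidneys with at least 10 CPM on receptor genes, that of Slc12a3 -0.285 with Malat1 as a covariate, and that of Slc5a1 0.244 without rilmenidine 4 and 0.057 with library size as a covariate. The proximal sodium-proton exchanger Slc9a3 had no more than 1 count in any kidney. Whether its 3′ end was missed by the counting was not tested, so these counts do not show that the gene was not expressed.

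All 6 basolateral potassium and chloride channel genes were tested, with a median log2 fold change of 0.05. Of these 0 passed, and 1 had an unadjusted p under 0.05, the potassium channel Kcnj16 (log2 fold change -0.38, standard error 0.13, adjusted p = 0.313 in edgeR). Over all genes, unadjusted p-values under 0.05 were found for 4.43% with a higher and 6.13% with a lower estimate.

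**Figure D5:**
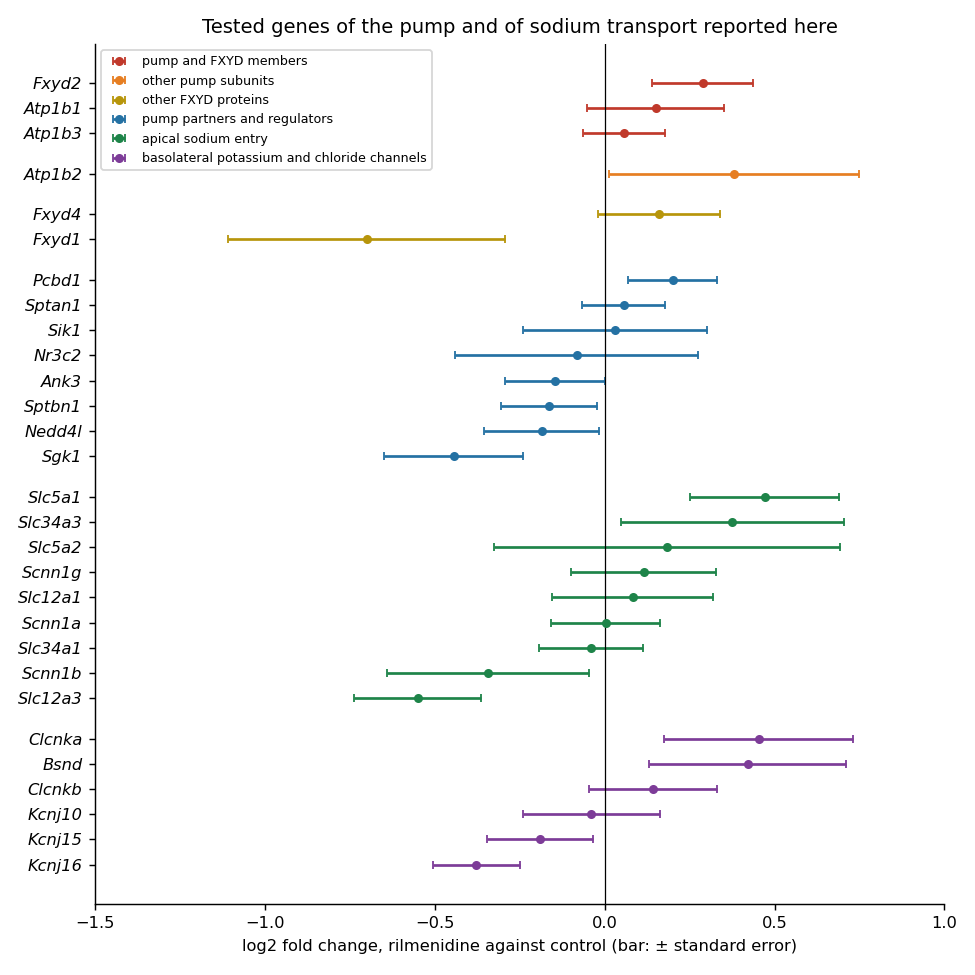
Log2 fold change (rilmenidine against control, 4 against 6 kidneys) of tested genes of the pump, the FXYD family, their partners, apical sodium entry and basolateral channels, with bars of 1 standard error. Fxyd2, Atp1b1 and Atp1b3 lie at 0.29, 0.15 and 0.06, and the widest bars belong to genes with few counts.

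The tubule segments that carry the pump did not have the same marker levels in all kidneys. The 5 thick ascending limb markers summed to between 1470 and 2140 CPM in controls and between 1750 and 2700 CPM with rilmenidine. Umod made up most of this sum, with means of 1076 CPM in controls and 1643 CPM with rilmenidine. Of 4 tested, all had estimates above 0 and 1 (Umod) had an unadjusted p under 0.05. Their log2 fold changes were 0.61 for Umod, 0.40 for Ptger3, 0.08 for Slc12a1 and 0.06 for Cldn10. The 4 distal convoluted tubule markers summed to between 755 and 1250 CPM and between 592 and 988 CPM, all with estimates below 0 and 2 (Slc12a3 and Trpm6) with an unadjusted p under 0.05. The 6 principal cell markers, which include Fxyd4, summed to between 200 and 303 CPM and between 257 and 310 CPM, with 2 of 5 tested markers (Aqp2 and Aqp3) at an unadjusted p under 0.05 and higher estimates. Umod, Trpm6, Aqp2 and Aqp3 are named here after their values were seen. Adjusted p-values in edgeR were 0.2435 for Umod, 0.313 for Slc12a3, 0.296 for Trpm6, 0.229 for Aqp2 and 0.442 for Aqp3, so none passed. Over all genes, 4.43% had an unadjusted p under 0.05 with a higher and 6.13% with a lower estimate, and 50.3% had estimates above 0.

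The 6 intercalated cell markers ranged from 219 to 316 CPM in controls and from 169 to 357 CPM with rilmenidine, and were highest in rilmenidine 1, the kidney with the most Fxyd2 and Atp1b1. Proximal tubule markers, the largest sum, ranged from 9330 to 11000 CPM and from 9370 to 10700 CPM. No marker of these segments was at 0 in all kidneys, but the principal cell marker Avpr2 had only 2 counts over all controls and 0 with rilmenidine. The part of segment composition in the levels of Fxyd2, Atp1b1 and Atp1b3 was not tested.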

How the data were processed

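RNA of 10 mouse kidneys (6 control, 4 rilmenidine; groups and replicate numbers from the sample labels) was prepared by a CEL-Seq type protocol. The authors deposited raw counts per Ensembl gene. The submitters' processing notes name bcl2fastq 1.8.4, Trimmomatic 0.32, STAR 2.5.2b, featureCounts 1.5 and mm10. Strand setting, annotation release and the handling of molecular identifiers are not given in the sources used here. If reads of the same molecule were not collapsed, counts overstate molecules, and Poisson intervals cover counting error only. The supplementary methods of the study name more control kidneys than the 6 analysed here.

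Symbols, coordinates and transcript lengths were taken from GENCODE M21 (42462 of 43629 identifiers matched), and the level per kb used the longest principal transcript. The filter kept genes that reached 6 reads in no fewer than 66.6% of the samples. These were scaled with RLE factors, and all 10 kidneys were fitted without covariates by the quasi-likelihood test of edgeR 4.0.16 (R 4.3.3, limma 3.58.1). The p-values were adjusted by Benjamini-Hochberg over 10055 genes with a threshold of 0.05. Fxyd5 did not pass this filter and was tested by an exact permutation test instead, as were ratios (prior count 2). On simulated counts of 9787 genes, 200 of them with a log2 change of 1.5, the test recovered 171 with 5 false calls. With a log2 change of 1 in 200 of 9817 genes it recovered 115 with 9 false calls. Changes as small as the estimates of the 3 tested genes (0.06 to 0.29) were not simulated. All simulated libraries shared the same mean profile, without the differences in Malat1 and receptor reads seen between kidneys.

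The text names the 4 genes, other pump and FXYD genes (some genes of these lists are not reported here), genes of the lists of partners, apical sodium entry and channels at an unadjusted p under 0.05 (otherwise the smallest p of a list), and the 3 genes most correlated with each tested gene. Marker lists were described by their sums. The members and lists were chosen with earlier results of these data known. H,K-ATPase, podocyte, endothelial, fibroblast and blood lists were also measured. Of these, the 3 H,K-ATPase genes could not be tested, and 0 genes of the others had an adjusted p under 0.05. Alternatives were TMM normalization, other count filters, DESeq2 1.42.0, the likelihood ratio test, covariates, a replicate block, a prior count of 0.5, the 7 libraries with at least 10 CPM on receptor genes, and leaving out each kidney.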

Additional observations from a re-analysis of the deposited data

How the results depend on the processing

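No alternative brought Atp1b1, Atp1b3, Fxyd2, Fxyd5 or any of their ratios past an adjusted p of 0.05. Some alternatives could not have done so. The replicate block of Fxyd5 and of the ratios was an exact test on too few pairs to reach 0.05. With a rilmenidine kidney left out, or in the 7 libraries with at least 10 CPM on receptor genes, a ratio alone could not pass after adjustment. Over all genes, the count of calls was 0 in the reported test, 241 with at least 1 count in any sample, 60 with DESeq2, 44 with the likelihood ratio test, and between 0 and 37 when 1 kidney was left out (37 without control 6, 33 without control 2, 6 without rilmenidine 1). Atp1b3 changed sign, to -0.0207 with log2 library size, -0.0519 with log2 Malat1 and -0.0142 in the 7 libraries with at least 10 CPM on receptor genes. With 1 kidney left out, log2 fold changes ranged from -0.15 (without rilmenidine 1) to 0.34 for Atp1b1, from -0.0138 (without rilmenidine 3) to 0.0877 for Atp1b3, from 0.18 to 0.34 for Fxyd2, from 0.16 to 0.55 for Fxyd5 and from -0.0159 (without rilmenidine 1) to 0.67 for Atp1b2. Ratio differences ranged from 0.0129 to 0.37 for Fxyd2 to Atp1b1, from 0.11 to 0.32 for Fxyd2 to Atp1b3, from 0.0928 to 0.48 for Fxyd5 to Atp1b3, from -0.21 to 0.26 for Atp1b3 to Atp1b1, from -0.10 to 0.51 for Fxyd5 to Atp1b1, and from -0.11 to 0.21 for Fxyd5 to Fxyd2. Where only a kidney or a covariate differed, the cause was not tested. In all, 297 recomputed values kept their direction and side of the threshold and 16 changed direction. Some of the 297 came from the settings in which passing was not possible, or not possible for a ratio alone.

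No label ties equal replicate numbers to a litter or a day, and deviations of same-numbered kidneys correlated at -0.08 to 0.08. With a replicate block the log2 fold changes were 0.11 for Atp1b1, 0.05 for Atp1b3 and 0.30 for Fxyd2, the Fxyd5 difference was 0.35, and 0 genes were called. Kcnj16 was then at -0.246, with an unadjusted p over 0.05. Fxyd5 has no value under DESeq2, the likelihood ratio test, the covariates or the filter of at least 10 counts in every sample, and neither Atp1b2 nor Fxyd1 passed that last filter. Depth limits the genes with few reads most: Fxyd5 rests on at most 13 counts per kidney.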
